A study of Mus musculus with 9 samples.

Results

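Axon guidance ligands and receptors were examined in mouse striatum after the neurotoxin MPTP. The members were genes of the semaphorin, plexin, neuropilin, ephrin, Eph receptor, Slit, Robo and netrin families and the netrin receptors Dcc and Unc5, found by symbol among the probe sets that carry 1 gene symbol. There were 68 of them, among 21780 such probe sets, and each was represented by its probe set with the highest mean over the 9 arrays. Of these, 67 lay above the filter on dim probe sets and were tested. Epha1, an Eph receptor, did not, with a mean log2 intensity of 5.72 over the arrays.

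The striatum receives dense dopamine input from the midbrain, and MPTP kills the cells of that input. The chronic group received 4 mg/kg MPTP once daily for 20 days and was sampled after 8 weeks, and the acute group received 4 injections of 20 mg/kg at intervals of 2 h and was sampled after 1 week. Both regimens came to 80 mg/kg. Saline was given to the controls in 4 injections on the acute schedule, with sampling after 1 week, so for the chronic group neither the dosing schedule nor the delay has a control of its own. There were 3 arrays of total striatal RNA per group. The labels name no strain, age or sex, nor whether arrays came from different animals. A p-value here therefore reflects variation among these arrays, some of which may be technical.

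Guidance molecules steer growing axons. Semaphorins signal through plexins, with neuropilins as co-receptors for the secreted class. Ephrins are membrane-bound ligands of the Eph receptor tyrosine kinases, Slits repel axons through Robo receptors, and netrins attract through Dcc and repel through Unc5. Many of these genes stay on in adult brain, where they act on synapses and spines. In striatum, ephrins and Ephs mark the patch and matrix compartments during development, and plexin D1, the receptor of Sema3e, is made by projection neurons of the direct pathway.

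Arrays differed in genes of neighbouring tissue. Tbr1, a marker of cortical glutamatergic neurons, lay at log2 9.12 and 9.65 on acute 1 and acute 2 and at 9.89 on control 1, against 5.69 to 7.27 on the other 6 arrays. The mean of 13 measured cortex genes, each relative to its own mean over the arrays, was 0.72, 0.98 and 1.05 on those 3 arrays and at most -0.33 on the others. Ppp1r1b, a defining gene of striatal projection neurons, was bright on all 9 arrays (11.44 to 12.31). Its deposited value was identical, 12.112812, on the 3 acute arrays, for a reason that is not given, so it says little about differences among them. Ttr, the main choroid plexus transcript, reached 13.37 on acute 3 and 12.56 on control 3, against 6.19 to 10.85 elsewhere. The mean of 13 measured genes of thalamus, septum and hypothalamus was 0.70 on acute 3 and 1.39 on control 3 and at most 0.09 on the others. The mean of 16 striatal projection neuron genes lay between 0.17 and 0.34 on chronic arrays, between -0.02 and 0.04 on acute arrays and between -0.44 and 0.09 on control arrays. Th, the dopamine synthesis enzyme, whose transcripts are made mainly in midbrain cell bodies, ran from 7.48 to 8.61 on chronic arrays, 7.34 to 8.02 on acute arrays and 7.14 to 8.51 on control arrays, which overlapped. In whole tissue, fewer cells of a type and less RNA per cell cannot be told apart.

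The promoters of Epha5 and Plxnd1 are shown because these genes, an ephrin-A receptor and the Sema3e receptor, had the smallest p among the members lower and the largest difference among the members higher after chronic MPTP. Each window runs from 250 bases before to 50 bases after the gene's start in RefSeq (build GRCm38.p6), and capitals mark the GC box, GGGCGG on either strand.
Epha5, chr5:84417333-84417632, minus strand: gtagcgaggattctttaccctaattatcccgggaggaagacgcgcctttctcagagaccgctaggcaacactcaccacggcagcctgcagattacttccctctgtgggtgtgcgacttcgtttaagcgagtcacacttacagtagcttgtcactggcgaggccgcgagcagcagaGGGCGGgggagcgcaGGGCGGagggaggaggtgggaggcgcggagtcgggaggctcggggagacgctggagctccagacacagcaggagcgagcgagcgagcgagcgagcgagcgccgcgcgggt
Plxnd1, chr6:115994956-115995255, minus strand: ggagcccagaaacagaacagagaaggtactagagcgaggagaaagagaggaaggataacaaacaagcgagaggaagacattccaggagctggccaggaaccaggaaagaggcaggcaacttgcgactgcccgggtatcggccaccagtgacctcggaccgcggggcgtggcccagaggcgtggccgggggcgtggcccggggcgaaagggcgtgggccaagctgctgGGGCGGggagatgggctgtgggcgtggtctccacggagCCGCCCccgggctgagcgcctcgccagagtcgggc
Each of these windows held 2 GC boxes, and their GC content was 64.3% for Epha5 and 67% for Plxnd1. Windows were found for 58 of the 68 members, 74 in all. The GC box occurred in 71.6% of them, against 35.7% of all 32851 promoter windows of the same length. The TATA box, TATAAA on either strand, occurred in 2.7% of the members' windows, against 13.6% of all windows. A match describes the letters and is not evidence of binding.

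Guidance genes of every family were measured above the filter in striatum. An intensity depends on the probes as well as on the transcript, so levels are compared between arrays and not between genes. The 5 members with the highest mean intensity were Efna3, a membrane-anchored ephrin-A, Epha4, a receptor for ephrins of both classes, Plxna2, a receptor for class 6 semaphorins, Unc5a, a repulsive netrin receptor, and Sema6d, a transmembrane semaphorin. Efna3 lay at log2 10.54, 11.15 and 10.87 on the chronic arrays, with 10.35, 10.75 and 10.42 for the acute and 10.42, 10.81 and 10.65 for the control arrays. Epha4 lay at 10.69, 10.49 and 10.93 on the chronic, 10.81, 10.57 and 10.63 on the acute and 10.60, 10.53 and 10.45 on the control arrays. For both genes the 3 groups overlapped. Plxna2 lay at 10.16, 10.55 and 10.35 on the chronic, 10.25, 10.54 and 10.05 on the acute and 10.30, 10.42 and 10.12 on the control arrays. Unc5a lay at 9.90, 10.76 and 10.36 on the chronic, 9.99, 10.48 and 9.94 on the acute and 10.02, 10.22 and 10.07 on the control arrays. Sema6d lay at 10.14, 10.14 and 10.33 on the chronic, 10.03, 9.94 and 10.37 on the acute and 9.97, 10.15 and 10.60 on the control arrays. These groups overlapped as well. Replicate 2 was the highest array of its group for Plxna2 and Unc5a in each of the 3 groups, and replicate 3 was so for Sema6d.

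**Figure D1:**
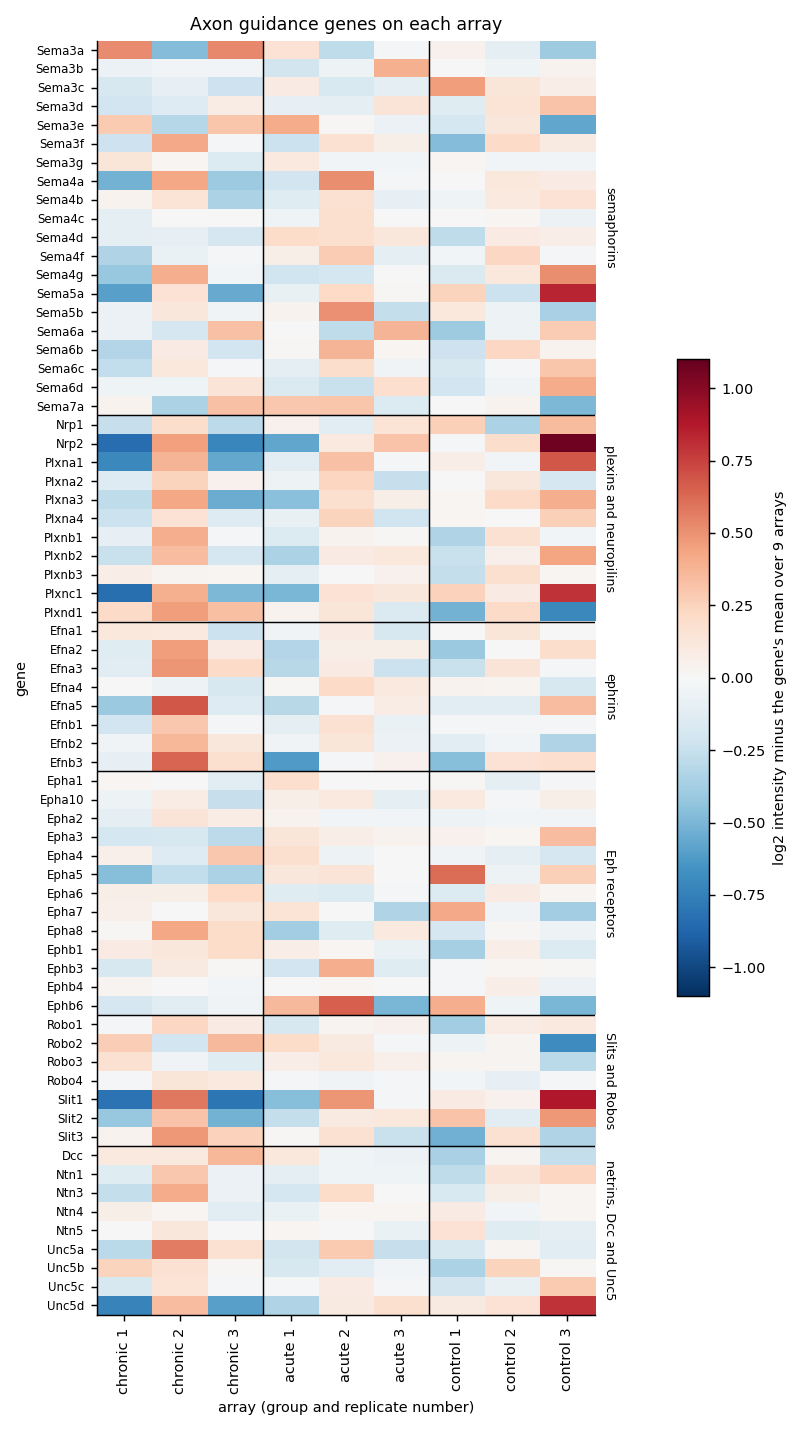
Heat map of the 68 axon guidance genes (rows, by family) on the 9 arrays (columns, chronic, acute and control). Colour is the log2 intensity minus the gene's own mean over the 9 arrays. The strongest colours of Nrp2, Slit1, Plxnc1, Unc5d and Sema5a are on control 3 and chronic 1.

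At 8 weeks after chronic MPTP, Epha5 and Epha3, receptors for A-class ephrins, and Sema3c, a secreted semaphorin, were lower than in controls on every chronic array, while Dcc, the attractive netrin receptor, and Ephb1, a receptor for B-class ephrins, were higher on every chronic array. None of the 67 members passed the adjusted threshold in limma (smallest adjusted p = 0.876), as was the case for all 16335 probe sets tested (0% called). An unadjusted p under 0.05 was reached by 9 members, 13.4% of those tested, against 5.51% of all probe sets. Of the 9, 5 were higher (7.46% of members, against 2.85% of all probe sets) and 4 lower (5.97%, against 2.66%). The groups did not overlap for 5 members (7.46%), a share near the 6.55% of all probe sets. Of these, 2 were higher (2.99%, against 2.88%) and 3 lower (4.48%, against 3.67%).

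Among the ligands, Sema3c, which signals through neuropilins, lay at log2 7.61, 7.69 and 7.56 on the chronic arrays, against 8.25, 7.92 and 7.85 on the control arrays. All chronic values were below all control values. The log2 fold change was -0.39 ± 0.12 (SE, 95% interval -0.66 to -0.11), with an unadjusted p of 0.0104 and an adjusted p of 0.876 in limma. Slit3, a secreted Slit, lay at 9.66, 10.10 and 9.88 on the chronic arrays and at 9.09, 9.79 and 9.30 on the control arrays. It was 0.49 ± 0.19 higher on the log2 scale (adjusted p = 0.898), with control 2 inside the chronic range. Efnb2, a transmembrane ephrin that binds EphB receptors and EphA4, lay at 9.44, 9.85 and 9.61 on the chronic arrays, against 9.37, 9.45 and 9.15 on the control arrays. Its difference was 0.31 ± 0.13 (adjusted p = 0.899), or 0.20 without chronic 2, and control 2 was a little above chronic 1.

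Among the receptors, Epha5 lay at 7.85, 8.05 and 7.97 on the chronic arrays, against 8.93, 8.26 and 8.57 on the control arrays. The chronic arrays were close together and all below the controls. This was a log2 fold change of -0.63 ± 0.15 (95% interval -0.98 to -0.29), 1.55-fold, with an unadjusted p of 0.00249 and an adjusted p of 0.876. Epha3 lay at 6.40, 6.42 and 6.30 on the chronic arrays and at 6.64, 6.61 and 6.93 on the control arrays, again without overlap. Its log2 fold change was -0.35 ± 0.10 (unadjusted p = 0.00619, adjusted p = 0.876). Ephb1 differed the other way, with 8.68, 8.72 and 8.79 on the chronic arrays and 8.23, 8.67 and 8.44 on the control arrays, a log2 fold change of 0.28 ± 0.11 (adjusted p = 0.899), or 0.17 without control 1. The lowest chronic array was only just above control 2.

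Plxnd1 lay at 10.11, 10.36 and 10.23 on the chronic arrays, against 9.38, 10.11 and 9.19 on the control arrays. It was 1.59-fold higher, with a log2 fold change of 0.67 ± 0.21 (95% interval 0.19 to 1.15, unadjusted p = 0.011, adjusted p = 0.876), and control 2 was level with chronic 1. The controls low in Plxnd1, control 1 and control 3, were those lowest in striatal projection neuron genes (-0.44 and -0.43, against 0.09 on control 2). The part of projection neuron genes in this difference was not tested. Dcc lay at 9.71, 9.72 and 9.98 on the chronic arrays, against 9.25, 9.64 and 9.35 on the control arrays, without overlap. Its log2 fold change was 0.39 ± 0.12 (unadjusted p = 0.011, adjusted p = 0.876). Unc5d, a repulsive netrin receptor, lay at 7.63, 8.70 and 7.76 on the chronic arrays and at 8.46, 8.52 and 9.16 on the control arrays. Its log2 fold change of -0.68 ± 0.29 (adjusted p = 0.899) was -0.092 with the tissue covariates described below. Chronic 1 and chronic 3 were low, while chronic 2 lay among the controls.

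**Figure D2:**
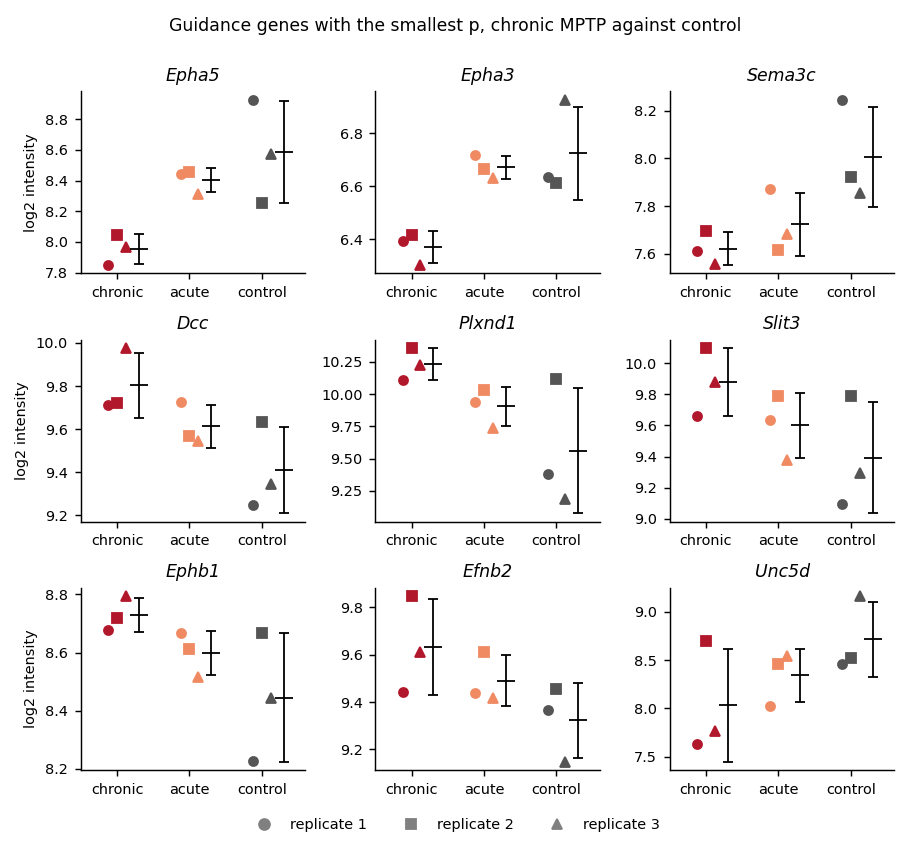
Log2 intensity (vertical axis, a scale per gene) of the 9 guidance genes with an unadjusted p under 0.05 in chronic MPTP against control. Coloured points are single arrays of the chronic, acute and control groups, their shape gives the replicate number, and the bars to their right are the mean and SD (n = 3). Chronic and control points do not overlap for Epha5, Epha3, Sema3c, Dcc and Ephb1.

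By family, the median log2 fold change of chronic MPTP against control was 0.12 for ephrins (6 of 8 higher), 0.12 for Slits and Robos (5 of 7 higher), 0.051 for netrins, Dcc and Unc5 (5 of 9 higher) and 0.031 for Eph receptors (7 of 12 higher). It was -0.064 for semaphorins (7 of 20 higher) and -0.16 for plexins and neuropilins (4 of 11 higher). Over all 67 members it was 0.00069, with 34 higher (50.7%), against -0.011 and 46.7% over all probe sets tested. The remaining 58 members had log2 fold changes between -0.78 and 0.38. The lowest of these was Nrp2, a neuropilin that binds Sema3f, with 7.54 ± 0.71 on chronic arrays and 8.32 ± 0.57 on control arrays (SD, n = 3), a gene singled out after its values were seen. With the tissue covariates described below, the log2 fold change of Nrp2 was -0.036 and that of Plxnb3 -0.081. The other plexins and Nrp1 were then positive, from 0.040 for Plxna3 to 0.27 for Plxnd1. The direction of the plexin and neuropilin median therefore depended on the covariates. The ephrins higher in the chronic group were Efna2, Efna3, Efna5, Efnb1, Efnb2 and Efnb3, and each had its highest value on chronic 2. The ephrin median without that array was not computed.

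The count of 9 members was 14 without control 2, 5 without control 3, 18 without chronic 2 and 5 without chronic 3. The share of all probe sets was not computed with arrays left out, so such counts have no background beside them. With the replicate number as a block, 15 members had an unadjusted p under 0.05 (22.4%, against 13% of all probe sets) and 0 passed after adjustment. With the means of the cortex and thalamus lists as covariates, a fit with 4 residual degrees of freedom in place of 6, the count was 0, where 1.51% of all probe sets had such a p. The log2 fold changes were then -0.31 for Epha5, -0.22 for Epha3, -0.37 for Sema3c, 0.15 for Dcc, 0.27 for Plxnd1, 0.33 for Slit3, 0.11 for Ephb1, 0.32 for Efnb2 and -0.092 for Unc5d. The 9 signs were as without covariates, and Epha5, Epha3, Dcc, Plxnd1, Ephb1 and Unc5d were smaller by over 1.5 times. Without the 3 arrays high in Tbr1 the count was 4, and it was also 4 without the 2 arrays high in choroid plexus genes.

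At 1 week after acute MPTP, 1 member, Sema3c, had an unadjusted p under 0.05. That is 1.49% of the members, against 0.851% of all probe sets, of which 0.416% were higher and 0.435% lower. The adjusted p was 1 for every member, and 0% of all probe sets passed. Sema3c lay at 7.87, 7.62 and 7.69 on the acute arrays, against 8.25, 7.92 and 7.85 on the control arrays, with acute 1 just above the lowest control. Its log2 fold change was -0.28 ± 0.12 (unadjusted p = 0.0428, adjusted p = 1). It was -0.16 without control 1 and -0.34 with the tissue covariates.

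The other named members had larger p. Sema4d, a transmembrane semaphorin that binds plexin B1, lay at 9.19, 9.17 and 9.12 on the acute arrays, against 8.72, 9.09 and 9.07 on the control arrays. Its groups did not overlap, and its log2 fold change was 0.20 ± 0.11, or 0.083 without control 1, the lowest array, and 0.039 without the 3 arrays high in Tbr1. Leaving out those 3, here and for the genes below, leaves acute 3, an array high in Ttr, as the only acute array. Non-overlapping groups were found for 2 members, Sema4d and Robo3, 2.99% of those tested, against 3.56% of all probe sets. Both were higher in the acute group, as were 2.06% of all probe sets. Robo3, a divergent Robo, is named after its values were seen, with 5.98 ± 0.03 on acute arrays and 5.82 ± 0.19 on control arrays (SD, n = 3). Its mean over the 9 arrays, 5.90, was just above the filter at log2 5.89, and its control mean was below it. The high acute values thus helped Robo3 to be tested, so its non-overlap is no support for a difference. Plxnd1 had 9.94, 10.04 and 9.74 on the acute arrays, against 9.38, 10.11 and 9.19 on the control arrays, a difference of 0.34 ± 0.21, which was 0.62 without control 2, 0.16 without control 3 and 0.088 without the 3 arrays high in cortex genes. Robo2, a Slit receptor, lay at 10.30, 10.19 and 10.09 on the acute arrays, against 10.04, 10.13 and 9.40 on the control arrays, of which control 3 was lowest. Its difference of 0.34 ± 0.21 was 0.11 without control 3, 0.18 with the tissue covariates and 0.16 without the 2 arrays high in Ttr. Dcc lay at 9.73, 9.57 and 9.54 on the acute arrays, against 9.25, 9.64 and 9.35 on the control arrays, a difference of 0.20 ± 0.12. It was 0.12 without control 1, 0.32 without control 2, inside the acute range, and 0.052 without the 3 arrays high in Tbr1. Efna4, an A-class ephrin, lay at 6.34, 6.53 and 6.43 on the acute arrays, against 6.36, 6.35 and 6.15 on the control arrays, a difference of 0.15 ± 0.097 with overlap, or 0.077 without control 3.

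Family medians for acute MPTP against control were -0.11 for plexins and neuropilins (3 of 11 higher), -0.039 for ephrins (4 of 8), -0.0083 for Eph receptors (6 of 12), 0.0056 for netrins, Dcc and Unc5 (5 of 9), 0.033 for Slits and Robos (5 of 7) and 0.039 for semaphorins (13 of 20). Over the 67 members the median was 0.0056 with 36 higher, or 53.7%, against 0.0036 and 51.5% over all probe sets. The other 61 members, Robo3 included, ran from -0.46 to 0.33. With the replicate block 1 member had an unadjusted p under 0.05 (1.49%, against 4.21% of all probe sets), and with the tissue covariates 1 did (against 1.18%). The count of 1 member was 6 without control 2, and 0 without control 1, acute 2 or any 1 of the chronic arrays. The share of all probe sets was not computed with these arrays left out.

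**Figure D3:**
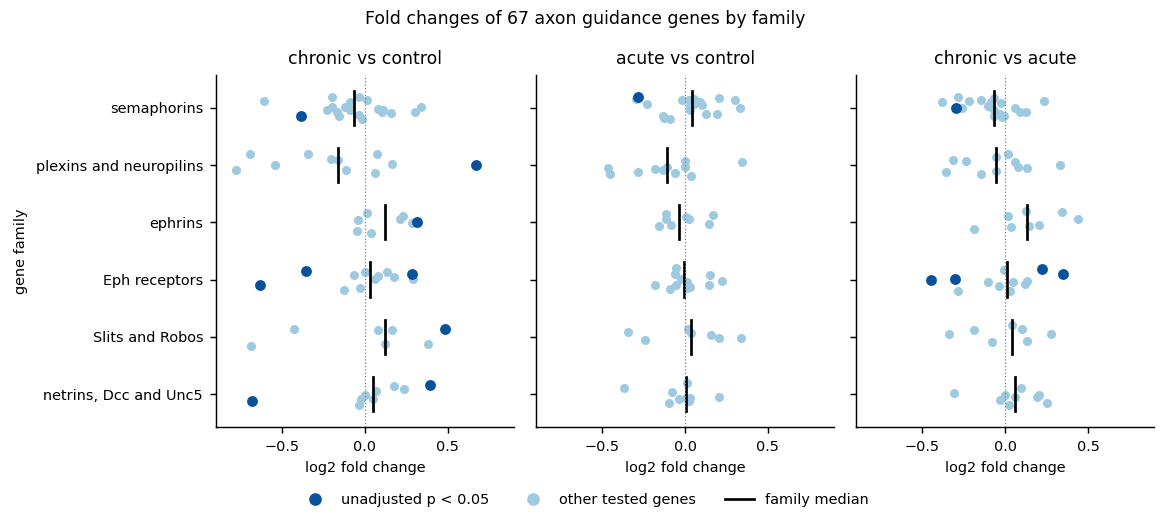
Log2 fold change (horizontal axis) of the 67 tested guidance genes by family (vertical axis), for chronic against control, acute against control and chronic against acute MPTP. Each point is a gene, dark where its unadjusted p was under 0.05 (9, 1 and 5 genes), and the black bars are family medians.

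Between the regimens of equal total dose, chronic arrays had lower Epha3, Epha5 and Sema4d and higher Epha6 than every acute array, and higher Epha8 on average. No member passed after adjustment (smallest adjusted p = 0.877), against 0.0122% of all probe sets. An unadjusted p under 0.05 was reached by 5 members, 7.46%, against 5.12% of all probe sets. Of these, 2 were higher (2.99%, against 2.36%) and 3 lower (4.48%, against 2.76%). The groups did not overlap for 8 members, 11.9%, against 8.63% of all probe sets, with 4 higher (5.97%, against 3.61%) and 4 lower (5.97%, against 5.01%).

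Epha5 lay at 7.85, 8.05 and 7.97 on the chronic arrays, against 8.44, 8.46 and 8.31 on the acute arrays, a log2 fold change of -0.45 ± 0.15 (unadjusted p = 0.0162, adjusted p = 0.877). Epha3 lay at 6.40, 6.42 and 6.30 on the chronic arrays, against 6.72, 6.67 and 6.63 on the acute arrays, a log2 fold change of -0.30 ± 0.10 (unadjusted p = 0.0145). For both receptors the gap between the groups was wider than the spread within either. Epha6, another EphA receptor, lay at 9.32, 9.32 and 9.48 on the chronic arrays, against 9.12, 9.10 and 9.24 on the acute arrays, a difference of 0.22 ± 0.095 (adjusted p = 0.877), or 0.13 without the 3 arrays high in Tbr1. Epha8, also of the EphA class, lay at 7.48, 7.90 and 7.67 on the chronic arrays, against 7.09, 7.34 and 7.58 on the acute arrays, a difference of 0.35 ± 0.15 (adjusted p = 0.877), or 0.22 without acute 1 and 0.10 without the 3 arrays high in Tbr1. Acute 3 lay above chronic 1 for Epha8, so these groups overlapped. Without the 3 arrays high in Tbr1, here and for the genes below, acute 3 is the only acute array left.

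Sema4d lay at 8.89, 8.90 and 8.81 on the chronic arrays, against 9.19, 9.17 and 9.12 on the acute arrays. The log2 fold change was -0.29 ± 0.11 (unadjusted p = 0.0234, adjusted p = 0.877), and a second probe set of the gene gave -0.28. Plxnd1 lay at 10.11, 10.36 and 10.23 on the chronic arrays, against 9.94, 10.04 and 9.74 on the acute arrays, without overlap, a difference of 0.33 ± 0.21 (unadjusted p = 0.156), or 0.49 without the 3 arrays high in Tbr1. This comparison shares its chronic arrays with the one against control and its acute arrays with the acute comparison.

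Family medians for chronic against acute MPTP were 0.13 for ephrins (7 of 8 higher), 0.060 for netrins, Dcc and Unc5 (7 of 9), 0.042 for Slits and Robos (4 of 7), 0.010 for Eph receptors (6 of 12), -0.053 for plexins and neuropilins (5 of 11) and -0.070 for semaphorins (4 of 20). The ephrins higher here include Efna2, Efna3, Efna5, Efnb1, Efnb2 and Efnb3, each with its highest value on chronic 2. The median over the 67 members was -0.0092 with 33 higher (49.3%), against -0.014 and 46.1% over all probe sets. With the replicate block, 9 members had an unadjusted p under 0.05 (13.4%, against 13.9% of all probe sets). With the tissue covariates 2 did (2.99%, against 2.32%). Sema4d was then -0.39, Epha3 -0.20, Epha5 -0.11, Epha8 0.31, Epha6 0.077 and Plxnd1 0.014. For the counts that follow, with arrays left out, the share of all probe sets was not computed. The count of 5 was 11 without chronic 2, 3 without control 3 or acute 2, 2 without acute 1 or chronic 3, and 1 once the 3 arrays with high Tbr1 were left out, a setting with 1 acute array.

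The range of log2 intensity over the 9 arrays had a median of 0.70 over the 67 members, against 0.50 over all probe sets tested. It exceeded 1 for 15 members, or 22.4%, against 8.2% of all probe sets. Members are the brightest probe set of each gene, and the background holds every probe set tested. These shares are therefore not matched for intensity. The 5 members with the widest range were Nrp2, Slit1, a secreted Slit, Plxnc1, the plexin that binds Sema7a, Unc5d and Sema5a, a transmembrane semaphorin. All 5 were highest on control 3 and lowest on chronic 1. Their log2 fold changes in chronic against control, in this order, were -0.78, -0.69, -0.69, -0.68 and -0.61. With the tissue covariates they were -0.036, 0.27, 0.046, -0.092 and 0.19, so Slit1, Plxnc1 and Sema5a changed sign.

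Nrp2 lay at 7.07, 8.36 and 7.19 on the chronic arrays, 7.34, 8.02 and 8.23 on the acute and 7.89, 8.11 and 8.98 on the control arrays. Slit1 lay at 8.29, 9.68 and 8.31 on the chronic, 8.64, 9.58 and 9.08 on the acute and 9.20, 9.15 and 9.99 on the control arrays. In both genes chronic 2 stood more than 1 log2 unit above the other chronic arrays. Plxnc1 lay at 8.45, 9.67 and 8.79 on the chronic, 8.78, 9.44 and 9.41 on the acute and 9.54, 9.38 and 10.08 on the control arrays. Sema5a lay at 8.53, 9.29 and 8.58 on the chronic, 9.05, 9.35 and 9.14 on the acute and 9.37, 8.89 and 9.97 on the control arrays. The values of Unc5d, given above for the chronic and control arrays, were 8.03, 8.46 and 8.54 on the acute arrays, with chronic 1, chronic 3 and acute 1 lowest, as for Nrp2 and Slit1.

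**Figure D4:**
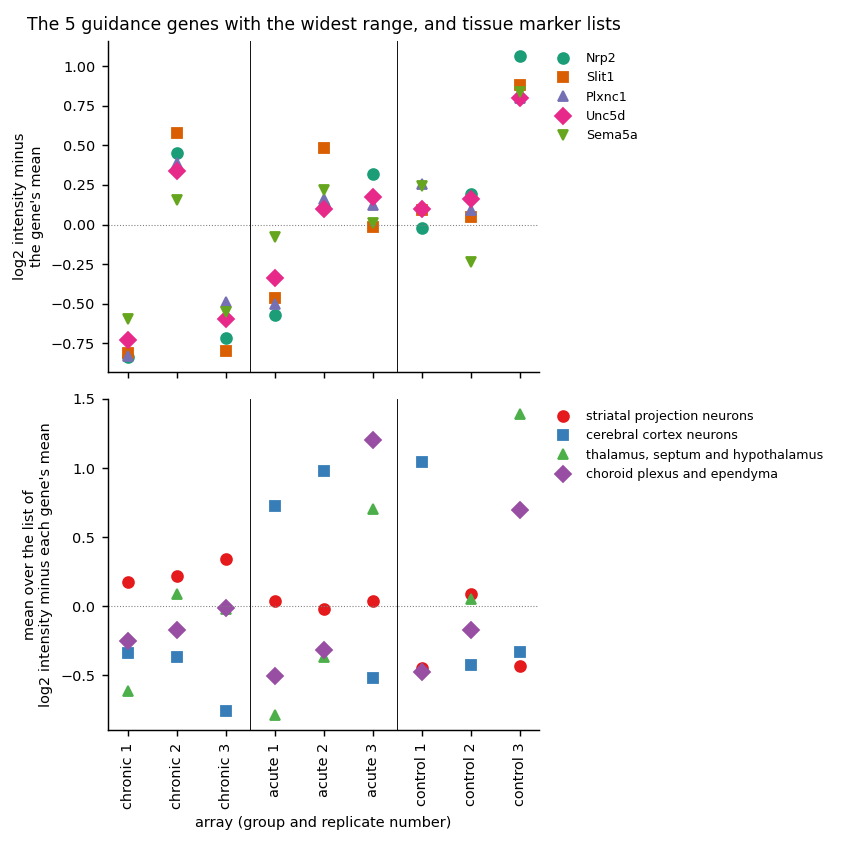
Top: log2 intensity of the 5 guidance genes with the widest range on each array, minus the gene's mean over the 9 arrays. Bottom: means of 4 tissue marker lists on the same arrays, in the same order (chronic, acute, control). Control 3 is highest and chronic 1 lowest for all 5 genes. On the thalamus list control 3 (1.39) and acute 3 (0.70) are highest and acute 1 (-0.79) is lowest.

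A description of array order, chosen after the values were seen, covered more members. Control 3 and chronic 2 were the highest 2 arrays for 15 of 67 members (22.4%, against 4.98% of all probe sets tested), which were 3 ephrins (Efna2, Efna5 and Efnb3), Slit1, Slit2, Robo1, Ntn1, Unc5c and Unc5d, and the plexins and neuropilins Nrp2, Plxna1, Plxna3, Plxnb2 and Plxnc1, and 1 semaphorin, Sema4g. Chronic 1 and chronic 3 were the lowest 2 arrays for 10 members (14.9%, against 4.77%), which were Epha5, Epha3, Sema3c, Nrp2, Plxna1, Sema4a, Sema5a, Slit1, Slit2 and Unc5d. Chronic 1, acute 1 and control 1 were the lowest 3 for 9 members (13.4%, against 11.3%). Chronic 1 was the lowest array of 20 members, or 29.9%, against 12.2% of all probe sets, and chronic 2 the highest of 19, or 28.4%, against 14.7%. Members share their arrays, so these shares are no test.

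Array orders that single out the arrays high in neighbouring tissue gave shares on both sides of the background. The 3 arrays high in Tbr1 were the highest 3 for 1 member (1.49%, against 5.67% of all probe sets), Ephb6, an Eph receptor without kinase activity. Ephb6 lay at 8.55, 8.62 and 8.71 on the chronic, 9.10, 9.40 and 8.24 on the acute and 9.14, 8.69 and 8.24 on the control arrays. The same arrays were the lowest 3 for 5 members (7.46%, against 3.4%), Epha6, Epha8, Plxnb3, Sema6d and Unc5b. The 2 arrays high in Ttr were the highest for 2 members (2.99%, against 6.1%), Sema3b and Sema6d, and the lowest for 4 (5.97%, against 4.39%), Epha7, Ephb6, Plxna2 and Sema5b.

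Other genes of the pathway gave a like picture. Of 32 tested ligands and adhesion receptors outside these families, 0 passed after adjustment in any comparison, and the median log2 fold change was -0.048 for chronic against control, -0.030 for acute against control and -0.055 for chronic against acute. Chl1, a cell adhesion molecule of the L1 family, lay at 8.96, 8.79 and 8.73 on the chronic arrays, 9.27, 9.32 and 9.27 on the acute and 9.83, 9.14 and 9.62 on the control arrays. It was lower on every chronic array than on any other, by -0.70 ± 0.16 against control (unadjusted p = 0.00159, adjusted p = 0.876) and -0.46 ± 0.16 against acute, or -0.39 and -0.14 with the tissue covariates. Rtn4r, the Nogo receptor, was -0.76 ± 0.22 against acute MPTP (adjusted p = 0.877), -0.24 with the tissue covariates and -0.39 without the 3 arrays high in Tbr1. In this list 1 gene was lower at an unadjusted p under 0.05 in chronic against control (3.13%, against 2.66% of all probe sets), 2 in chronic against acute (6.25%, against 2.76%) and 0 in acute against control (against 0.435%). In each comparison 0 were higher.

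Of 49 tested intracellular effectors, 0 passed after adjustment, and the median was -0.015 for chronic against control, -0.021 for acute against control and 0.013 for chronic against acute. In chronic against control 2 were higher at an unadjusted p under 0.05 (4.08%, against 2.85% of all probe sets) and 3 lower (6.12%, against 2.66%). In acute against control 1 was higher (2.04%, against 0.416%) and 0 lower (against 0.435%). In chronic against acute 1 was higher (2.04%, against 2.36%) and 1 lower (2.04%, against 2.76%). Rnd1, a small GTPase that binds plexins, lay at 7.13, 6.88 and 6.95 on the chronic arrays, 7.29, 7.51 and 7.31 on the acute and 7.48, 7.31 and 7.62 on the control arrays. Every chronic array was below all others, with a log2 fold change of -0.48 ± 0.11 against control (unadjusted p = 0.00202, adjusted p = 0.876) and -0.38 ± 0.11 against acute, or -0.23 with the tissue covariates. Limk1, the kinase that phosphorylates cofilin, was -0.44 ± 0.13 in chronic against control. Srgap1, a GTPase-activating protein that binds Robo, was 0.50 ± 0.18 in the same comparison, without overlap, or 0.33 without control 1. Ngef, an exchange factor activated by EphA receptors, was 0.33 ± 0.14 in acute against control (unadjusted p = 0.042, adjusted p = 1), or 0.19 without control 3. With the tissue covariates Rnd1 -0.32, Limk1 -0.26 and Srgap1 0.26 in chronic against control, and Ngef was 0.22 in acute against control.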

How the data were processed

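Striatal RNA was hybridised to 9 Affymetrix arrays of 1 colour, 3 per group, after labelling with a whole-transcript kit, per the labels' protocols. The authors deposited log2 intensities per probe set, a scale read from the values; background correction, normalization and summary are not given in the sources used here, and the values were used as deposited. Groups came from the sample titles. Gene symbols came from GEO's table for the platform: 21780 of 28815 had 1 symbol, 1605 several and 5430 none, and all 68 members matched the RefSeq gene table with 0 changed symbols.

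The filter kept probe sets with 1 symbol whose mean reached the 25th percentile, log2 5.89, and left 16335. A mean per group was fitted with limma 3.58.1 (lmFit, eBayes) in R 4.3.3 on all 9 arrays (6 residual degrees of freedom), two-sided, with Benjamini-Hochberg adjustment over all 16335 and a threshold of 0.05. Errors beside fold changes are standard errors, and the code was tested on simulated data. The simulated noise was independent between arrays, without pairs or tissue differences, so that test bears on the code and not on these arrays. The number of arrays limits the precision. Members given with fold changes were those with an unadjusted p under 0.05 or with non-overlapping groups and a change of at least 1.2-fold, filled to 6 by p, and for the other pathway lists the 3 with the smallest p. All arrays' values are given for these members, the 5 with the highest mean and the 5 with the widest range. The members and lists were chosen with earlier results of these data known.

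Deviations from the group means correlated between all 9 pairs of same-numbered arrays of different groups (r from 0.16 to 0.67 across probe sets, against -0.61 to 0.18 for the 18 other pairs), so the title numbers were taken as possible pairs. These ranges overlap slightly, and they are not independent, since deviations within a group cancel out. That pairing rests on the values alone, and a fit with the number as a block was run beside each test. The errors, intervals and p given beside single genes are from the fit without the block. No 2 arrays shared more than 6.34% of their values exactly. Alternatives were single arrays left out, other filters and scalings, tissue marker lists as covariates, arrays high in neighbouring tissue left out, all probe sets of a gene averaged, and a variance trend.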

Additional observations from a re-analysis of the deposited data

How the results depend on the processing

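No member passed the adjusted threshold under any alternative run, in any of the 3 comparisons. The members' median log2 fold change moved by less than the spread of that median between arrays of a group (SD 0.087) in each. Without single arrays it ran from -0.051 to 0.044 in chronic against control and from -0.060 to 0.029 in acute against control. In chronic against acute it ran from -0.062 to 0.043. With the tissue covariates the median rose beyond these ranges, to 0.074 in chronic against control and 0.077 in chronic against acute. The latter, from -0.0092, came close to the limit. The alternatives were followed for 39 single-gene differences, chosen by the naming rule given above for members and pathway lists. Of their 775 alternative values, 774 kept direction and side of the threshold. The exception was Sos1, a Ras exchange factor (-0.20 in acute against control), which was 0.029 without the 3 arrays high in Tbr1. That setting leaves 1 acute array, assumed to vary like the others. Several alternatives could not alter a fold change: the replicate block, other filters, the variance trend and the fit of only 2 groups. Leaving out an array of the group not compared could not either. The 39 were chosen by small p or non-overlap in these data, and their adjusted p was far above 0.05. The 774 is therefore a weak check. Sizes moved more than directions. With the tissue covariates Unc5d, among the 39, went from -0.68 to -0.092 in chronic against control. Plxnd1, also among them, went from 0.33 to 0.014 in chronic against acute. Outside the 39, some of the members with the widest range changed sign in chronic against control. With the tissue covariates Slit1 went from -0.69 to 0.27, Plxnc1 from -0.69 to 0.046 and Sema5a from -0.61 to 0.19. Nrp2 went from -0.78 to -0.036 and kept its sign.

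Counts of members with an unadjusted p under 0.05 moved more, and the cause was not tested. Shares of all probe sets were computed only for the main fit, the block and the covariates. The other counts here have no background beside them. In chronic against control the count of 9 was 15 with the replicate block, 0 with the tissue covariates, 4 without the arrays high in Tbr1, 4 without those high in Ttr, and 5 to 18 without single arrays. In acute against control the count of 1 was 0 with only the 2 groups compared, the stricter filter, quantile normalization, centred medians, or without the arrays high in Ttr, and 0 to 6 without single arrays. In chronic against acute the count of 5 was 9 with the block, 3 with the stricter filter, 2 with the covariates, 1 without the arrays high in Tbr1, and 2 to 11 without single arrays. The block changed no call after adjustment.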

Other observations

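Of the 68 members, 5 had more than 1 probe set, and these were compared within the gene. The 2 probe sets of Sema6b, a transmembrane semaphorin, had log2 fold changes of -0.16 and -0.16 in chronic against control, and those of Unc5d -0.68 and -0.58. The Sema6b sets were also nearly equal in mean intensity (9.892 and 9.891). Whether their probes overlap was not examined, so they may not be separate measurements. The second set of Ephb1 had a lower mean intensity (6.24 against 8.59) and a smaller difference, 0.12 against 0.28. The sets of Epha10 differed in sign in acute against control, at -0.026 and 0.048.

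Members with flat profiles were found in several families. Ephb4, an Eph receptor of veins, varied by 0.14 on the log2 scale over the 9 arrays, Robo4, an endothelial Robo, by 0.22, Ntn4, a netrin of basement membranes, by 0.22, Epha2, an Eph receptor, by 0.24 and Sema4c, a transmembrane semaphorin, by 0.28. Some of their deposited values repeat. Ntn4 was 6.81807 on chronic 2, acute 2, acute 3 and control 3, and Ephb4 was 7.28952 on chronic 2, acute 1 and acute 3. Robo4 was 7.30164 on chronic 1, acute 1 and control 3. The origin of such ties is not given, so a small range here need not be a steady transcript level. These genes were singled out after their values were seen.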
